A study of Mus musculus with 6 samples.

Results

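Interleukins are secreted signals by which immune, endothelial, stromal and liver cells address each other, and each acts through receptor chains on the receiving cell. The mouse genes examined were the protein-coding genes whose symbol opens with Il and a number, 84 in all out of 56884 mouse genes in the deposited table. By known role they were divided into 40 ligands, 42 receptor chains and 2 other proteins, and 44 of them reached a total of 10 counts over the 6 libraries. These 44 were 13 ligands, 30 receptor chains and the binding protein Il18bp, and they stand among 18018 mouse genes that passed the same minimum.

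The libraries came from livers of male athymic BALB/c (nu/nu) mice, 6 weeks old, which had received human HCC cells (the hepatocellular carcinoma line QGY-7703) in the liver. All mice were injected through the tail vein, 1 week after implantation, with an AAV8 vector whose TBG promoter is active in hepatocytes, and were kept for another 3 weeks. The 3 siControl libraries (genotype label WT) carried the control vector and the 3 siAATF libraries (genotype label KD) the vector against mouse Aatf. Athymic mice lack a thymus and so most mature T cells, while other leukocytes remain.

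Mouse gene counts were between 213022 and 913584 in siControl and between 11835898 and 42563694 in siAATF. The rest of each library was human, 98.1 to 99.2% of all gene counts in siControl against 0.972 to 2.14% in siAATF, so that the group and the share of tumor RNA cannot be told apart. Levels are given in CPM (counts scaled to 1e+06 per library, with the mouse total multiplied by its TMM normalization factor). On that scale a floor of 3 counts is worth 1.67 to 7.24 CPM in siControl libraries and 0.103 to 0.604 in siAATF libraries. The targeted gene Aatf was read at 9.62, 2.41 and 12.8 TMM-normalized CPM in siControl, from 12, 1 and 23 counts. It was at 13.2, 22.0 and 18.8 in siAATF, from 384, 109 and 340 counts (log2 fold change 0.93, SE 0.47, adjusted p = 0.152). On this scale the libraries labelled siAATF did not have less of it. The scale rests on TMM factors of 1.77 to 1.96 in siControl and 0.419 to 0.682 in siAATF. Whether Aatf was silenced cannot be told from these values, and all directions below follow the labels. The hepatocyte markers, summed, were at 2910 to 7262 TMM-normalized CPM in siControl and at 35536 to 108194 in siAATF, and 8 of 8 were higher in siAATF. Nothing in the labels ties a library to a mouse, so p-values measure only the spread between these libraries. In bulk RNA fewer cells of a type and less RNA per cell cannot be told apart.

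The interleukin-1 family (Il1a, Il1b, Il18, Il33, Il36g) is made largely by macrophages, neutrophils and barrier cells, and its receptors pair a binding chain with an accessory chain, Il1rap for most of them and Il18rap for Il18. Interleukin-6 and interleukin-11 bind their own receptor chains and then the shared chain Il6st (gp130), which signals through JAK kinases and Stat3 and in hepatocytes drives the acute phase response. The receptors for interleukins 2, 4, 7, 15 and 21 share the chain Il2rg, known as the common gamma chain, and are carried mainly by lymphocytes and other blood cells.

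Promoters were looked up for the members because several of these genes are known targets of AP-1, NF-kappa-B, C/EBP and STAT factors. The RefSeq table (build GRCm38.p6, 250 bases before to 50 after each start, 5′ to 3′ on the gene's strand) held 46 promoters of 35 of the 44 members. Promoters are shown for Il6, the tested ligand without a count in any siAATF library, and for the antagonist Il1rn. Also shown are those of Il1b, the ligand with the highest mean level in siControl, and of Il18. Il18 was the only ligand called higher on the TMM scale of mouse counts. Capitals mark matches to the motifs searched.
Il6: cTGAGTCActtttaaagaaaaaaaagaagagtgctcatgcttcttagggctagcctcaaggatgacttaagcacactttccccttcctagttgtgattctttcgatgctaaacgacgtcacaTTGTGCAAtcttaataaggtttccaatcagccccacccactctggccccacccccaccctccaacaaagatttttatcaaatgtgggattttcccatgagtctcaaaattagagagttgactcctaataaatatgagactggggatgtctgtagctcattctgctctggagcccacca
Il1rn: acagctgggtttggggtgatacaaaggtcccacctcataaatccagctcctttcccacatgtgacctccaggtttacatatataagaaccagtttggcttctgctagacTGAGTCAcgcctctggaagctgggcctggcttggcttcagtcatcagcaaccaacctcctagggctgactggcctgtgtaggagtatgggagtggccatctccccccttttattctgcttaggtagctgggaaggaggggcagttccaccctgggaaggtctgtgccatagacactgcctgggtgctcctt
Il1b: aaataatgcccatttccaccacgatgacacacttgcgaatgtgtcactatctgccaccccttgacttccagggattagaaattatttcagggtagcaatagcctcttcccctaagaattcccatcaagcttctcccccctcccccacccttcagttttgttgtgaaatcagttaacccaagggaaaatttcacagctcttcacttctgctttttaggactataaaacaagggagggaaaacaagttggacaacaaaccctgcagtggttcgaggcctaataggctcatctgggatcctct
Il18: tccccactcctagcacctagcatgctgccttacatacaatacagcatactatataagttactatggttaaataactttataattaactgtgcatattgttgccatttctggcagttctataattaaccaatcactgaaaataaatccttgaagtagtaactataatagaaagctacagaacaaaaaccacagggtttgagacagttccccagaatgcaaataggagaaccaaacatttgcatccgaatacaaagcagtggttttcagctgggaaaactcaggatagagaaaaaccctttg
The Il6 promoter lies at chr5:30012864-30013163 on the plus strand, the Il1rn promoter at chr2:24336610-24336909 on the plus strand, the Il1b promoter at chr2:129371090-129371389 on the minus strand and the Il18 promoter at chr9:50554450-50554749 on the plus strand. In Il6 the letters TGAGTCA, the AP-1 motif TGACTCA read on the other strand, stood 249 bases before the start, and TTGTGCAA, a C/EBP form read on the other strand, stood 128 bases before it. Il1rn held TGAGTCA 141 bases before the start in 1 of its 3 listed promoters. The Il1b and Il18 windows held none of the letters searched, which says nothing about the factors.

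Searched on both strands, TGACTCA was in 8 of the 46 member promoters, those of Il11, Il13ra2, Il15ra, Il16, Il17rb, Il1a, Il1rn and Il6, and in 5.20% of all 32851 promoters of the table. The STAT motif TTCNNNGAA was in 5 of 46 (Il12rb2, Il17d, Il18r1, Il1r2 and Il7r) and in 8.30% of all promoters. The NF-kappa-B letters GGGACTTTC or GGGAATTTC were in that of Il16 alone and in 0.612% of all. The C/EBP letters TTGCGCAA or TTGCACAA were in that of Il6 alone (1.19% of all), and the HNF4A letters TGACCTTTG or TGGACTTTG in that of Il21r alone (0.9497% of all). The genes with a TGACTCA match included ones called lower (Il6, Il11, Il1rn, Il16), one called higher (Il15ra) and ones that were not called. These matches are a description of letters and mark no site.

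Relative to the other mouse genes, the ligands were mostly lower in siAATF. Of 13 ligands, 8 were called lower at an adjusted p under 0.05 (edgeR, adjusted over all 18018 genes), 1 was called higher and 4 were not called. Across all mouse genes tested, 14.4% were called lower and 17.6% higher. The median log2 fold change of the 13 ligands was -2.81, beside 0.50 for all genes. Among receptor chains 13 of 30 were called lower, 3 higher and 14 not, with a median log2 fold change of -0.43. These directions hold on the scale of mouse counts. Scaled by human and mouse counts together, which moves the median of all genes to 4.66, only 2 ligands and 2 receptor chains were called lower, and 6 and 19 were called higher.

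With the criteria of the study (an unadjusted p under 0.05 with the fitted change past 2 or -2 on the log2 scale in edgeR), 7 ligands were lower and 0 higher, and 12 receptor chains were lower and 2 higher. By these criteria 13.1% of all genes were lower and 13.6% higher. The TMM-normalized CPM of the groups did not overlap, with siAATF below, for 8 ligands and 11 receptor chains (18.1% of all genes), and with siAATF above for 1 ligand and 5 receptor chains (34.5% of all genes). Of the members called lower, 5 (Il6, Il11, Il36g, Il1rl2 and Il7r) reached the minimum of 10 counts through siControl alone, and Il15ra, called higher, through siAATF alone. As that is the group where each is high, the tests of these 6 add no support and their values are a description. The other 16 called lower and 3 called higher had 10 counts or more in each group.

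**Figure D1:**
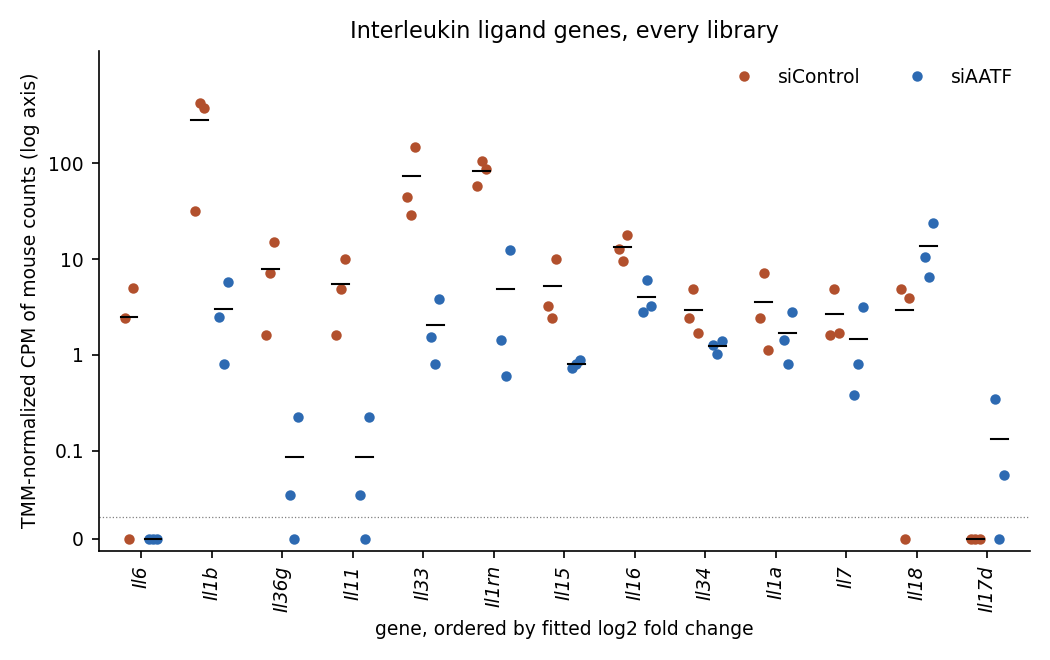
TMM-normalized CPM of mouse counts (log axis, with 0 drawn below the dotted line) of the 13 interleukin ligand genes in each library, orange for the 3 siControl and blue for the 3 siAATF libraries, with black bars at the group means. Il1b ran from 32.1 to 429.5 CPM in siControl and from 0.806 to 5.76 in siAATF, while Il18 was at 0 to 4.81 in siControl and at 6.45 to 23.9 in siAATF.

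Il1b, the main secreted cytokine of activated macrophages and neutrophils, was at 32.1, 429.5 and 383 TMM-normalized CPM in siControl replicates 1 to 3 and at 2.48, 0.806 and 5.76 in siAATF replicates 1 to 3. Replicate 1 was far below the other siControl libraries but still above every siAATF library. Its log2 fold change was -6.46 (SE 0.98, adjusted p = 0.000368), and it stayed called under all 16 alternatives that gave a value. Il1rn, the secreted antagonist that occupies the same receptor without signalling, was at 58.5, 106 and 86.9 CPM in siControl and at 1.41, 0.604 and 12.5 in siAATF. The antagonist fell as well, by 4.04 on the log2 scale (SE 0.83, adjusted p = 0.00270), with siAATF replicate 3 the highest of its group. Il1a, the cell-bound agonist of the same receptor, was read at 2.41, 7.24 and 1.11 CPM in siControl, from 2 or 3 counts a library, and at 1.41, 0.806 and 2.83 in siAATF. The pooled ratio of siAATF to siControl for Il1a was 0.797, with an exact 95% interval of 0.389 to 1.90 for counting error only, and the groups overlapped.

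Il33, a nuclear alarmin released by damaged endothelial, epithelial and stellate cells, was at 44.9, 29.0 and 148 CPM in siControl and at 1.55, 0.806 and 3.82 in siAATF. The groups lay far apart, and the log2 fold change was -5.12 (SE 0.70, adjusted p = 0.000199). Il36g, an epithelial and myeloid agonist of the same family, was at 1.60, 7.24 and 15.04 CPM in siControl and at 0.0345, 0 and 0.222 in siAATF (fitted log2 fold change -6.19, SE 1.09). Its siControl values rest on 2, 3 and 27 counts, through which alone it reached the minimum, so the level there is known only roughly.

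Il18, which is made as a precursor and is released after cleavage by caspase-1, was the only ligand called higher. It was at 4.81, 0 and 3.90 CPM in siControl, from 6, 0 and 7 counts, and at 10.4, 6.45 and 23.9 in siAATF, from 302, 32 and 432 counts. The groups did not overlap, but the log2 fold change of 1.94 (SE 0.68, adjusted p = 0.0454) passed the threshold narrowly. The call was lost under 8 of 15 alternatives, among them each siControl library left out in turn, and the adjusted p ranged from 6.11e-12 to 0.856 over the alternatives. Its soluble antagonist Il18bp was at 59.3, 14.5 and 13.9 CPM in siControl and at 6.45, 5.64 and 44.05 in siAATF. These groups overlapped and Il18bp was not called (log2 fold change -0.68, SE 0.77, adjusted p = 0.516). It was called lower without siAATF replicate 3 (log2 fold change -2.22) and was at 0.41, not called, without siControl replicate 1. With mouse counts alone as the scale it was called lower (-2.48), and with human and mouse counts higher (3.43).

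Among ligands of the gp130 family, Il6, the inducer of the hepatocyte acute phase response, was read from 3, 0 and 9 counts in siControl (2.41, 0 and 5.01 CPM) and from no count in any siAATF library. Pooled over the group and with the floor of 3 counts for siAATF, it was at least 60.2-fold lower. Il6 reached the minimum of 10 counts through siControl alone, the group where it is high, so its call is a description. Of the 12 siControl counts 9 were in replicate 3, and without it siControl held 3, the floor itself, so that no fold could be given. The siControl library with the smallest mouse total was also at 0, so the groups touch. Il11, a relative of Il6 made by stromal cells, was at 1.60, 4.83 and 10.03 CPM in siControl and at 0.0345, 0 and 0.222 in siAATF. Its fitted log2 fold change was -5.66 (SE 1.11), again from few counts, 2, 2 and 18 in siControl and 1, 0 and 4 in siAATF, and Il11 too reached the minimum through siControl alone. The call was lost when libraries were thinned to the smallest total (-4.33) and when scaled by human and mouse counts (-1.54).

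Il15, which sustains NK and memory T cells, was at 3.21, 2.41 and 10.03 CPM in siControl and at 0.724, 0.806 and 0.887 in siAATF (log2 fold change -2.81, SE 0.76, adjusted p = 0.0136). Il16, a chemoattractant for CD4+ cells, was at 12.8, 9.65 and 17.8 CPM in siControl and at 2.79, 6.04 and 3.27 in siAATF (log2 fold change -1.84, SE 0.49, adjusted p = 0.0122). Both had every siAATF library below every siControl library. Of the exon bases of Il16, 1202 lie opposite Stard5 on the other strand, whose counts were higher in siAATF than in siControl, and the strand setting of the counting is not stated. Il34, a ligand of the macrophage receptor Csf1r, was at 2.41, 4.83 and 1.67 CPM in siControl and at 1.28, 1.01 and 1.39 in siAATF. It did not pass the test (adjusted p = 0.351), with a pooled ratio of 0.556 and an exact 95% interval of 0.267 to 1.34. Il7 (adjusted p = 0.677) and Il17d, which had no count in siControl, were not called either.

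How many ligands were called lower depended on siControl replicate 3, the control library with the largest mouse total. Without it, 4 ligands were called lower in place of 8. Il6 and Il11 then fell under the minimum total, and the calls of Il15 and Il16 were lost. Over all alternatives the adjusted p of Il15 ranged from 8.30e-05 to 0.245 and that of Il16 from 1.42e-05 to 0.122.

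The makeup of the ligand counts differed between the groups. Il1b took 18.9% (Wilson 95% interval 14.2 to 24.7), 70.6% (64.7 to 75.9) and 55.8% (53.0 to 58.6) of ligand counts in siControl, and 10.8% (8.63 to 13.3), 4.21% (1.65 to 10.3) and 9.87% (8.21 to 11.8) in siAATF. In siControl replicate 1, Il1rn (34.4%) and Il33 (26.4%) took more than Il1b. Il18 took 2.83% (1.30 to 6.04), 0% and 0.569% (0.276 to 1.17) in siControl, and 45.1% (41.4 to 48.9), 33.7% (25.0 to 43.7) and 41.0% (38.1 to 43.98) in siAATF. For the 0 of 252 counts in siControl replicate 2, the Wilson upper limit is 1.50%, and the floor of 3 counts of the total is 1.19%. These shares need no scaling between libraries, and the intervals cover counting error only, since PCR copies were not removed by molecular identifiers. Per length, Il1b had the highest mean of the ligands in siControl (208 ± 160 RPKM, SD, n = 3) and Il18 in siAATF (13.2 ± 8.89 RPKM), followed there by Il1b at 2.22 ± 1.86. RPKM here is TMM-normalized CPM per kb of exon. In siControl Il1rn (31.0 ± 8.85) and Il33 (28.3 ± 24.7) came next, and these neighbours in the order overlapped in their spread.

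The other 27 ligands stayed under a total of 10 counts, and 18 of them had no count in any library. Those without a count included Il4, Il5, Il13, Il17a, Il17f, Il21 and Il9, cytokines of helper T cells. At these depths a gene without counts could still lie below the floor of 1.67 to 7.24 CPM in each siControl library, so no absence is stated there. Il10, an inhibitory cytokine of macrophages and T cells, had 1 count in all 6 libraries together, in siControl replicate 3. Il23a had 8 and Il12b 3. Il22 and Il22b are near-identical copies whose reads would map to both, and reads that map to several places were dropped, so their 0 counts are uncertain.

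**Figure D2:**
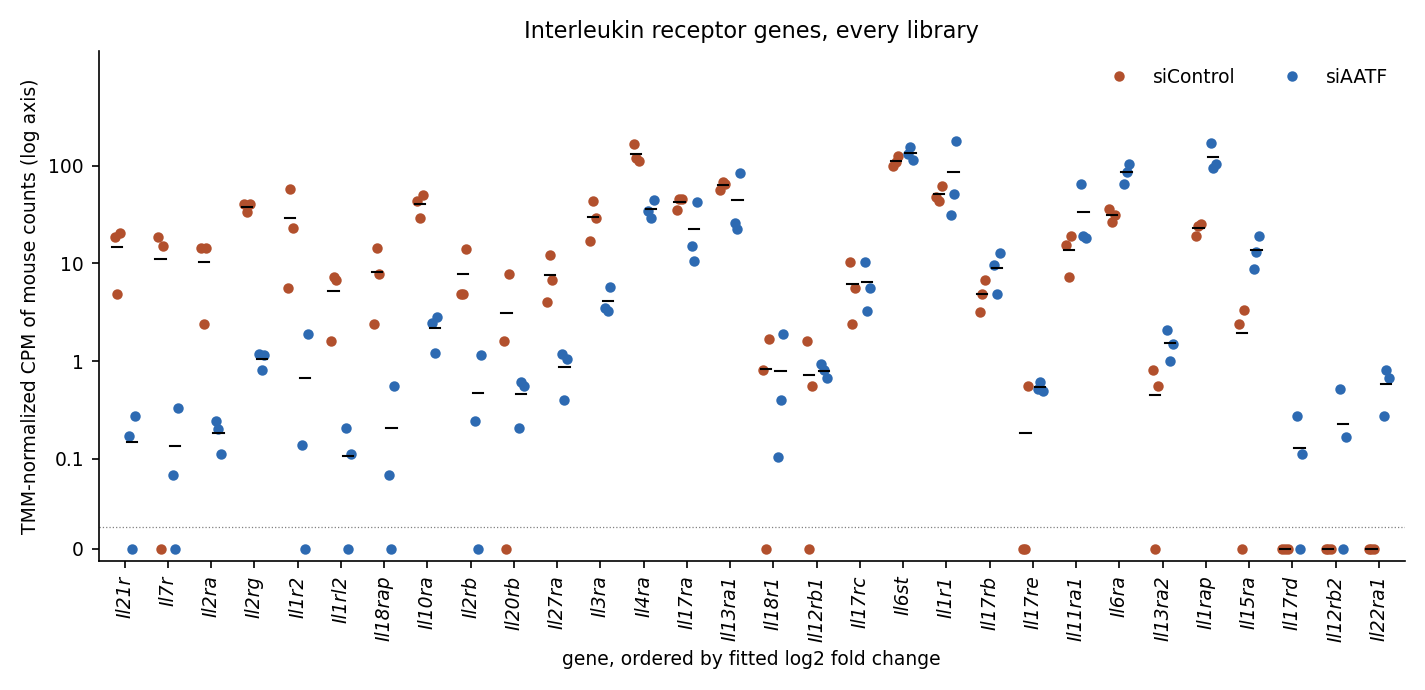
TMM-normalized CPM of mouse counts (log axis, with 0 drawn below the dotted line) of the 30 interleukin receptor genes in each library, ordered by fitted change, orange for siControl and blue for siAATF, with black bars at the group means. The genes at the left, from Il21r to Il4ra, were called lower, and Il6ra, Il1rap and Il15ra at the right were called higher.

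Of 7 chains that work with the common gamma chain or are that chain, 6 were called lower and 1, Il15ra, was called higher, beside 14.4% lower and 17.6% higher over all genes. Scaled by human and mouse counts together, Il21r and Il7r were still called lower, Il4ra and Il15ra were called higher and the other 3 were not called. The families named here were drawn up with the values known and carry no test. Il2rg, the common gamma chain itself, was at 40.1, 33.8 and 40.7 CPM in siControl and at 1.17, 0.806 and 1.16 in siAATF. Both groups were tight and far apart (log2 fold change -5.13, SE 0.41, adjusted p = 2.13e-05). Il21r was at 18.4, 4.83 and 20.6 CPM in siControl and at 0.172, 0 and 0.277 in siAATF (log2 fold change -6.31, SE 0.74, adjusted p = 8.53e-05). Il2ra, the high-affinity chain of regulatory and activated T cells, was at 14.4, 2.41 and 14.5 CPM in siControl and at 0.241, 0.201 and 0.111 in siAATF (log2 fold change -5.84, SE 0.78, adjusted p = 0.000174). In each of these chains the lowest siControl library was above every siAATF library.

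Il2rb, shared by the receptors for interleukins 2 and 15, was at 4.81, 4.83 and 13.9 CPM in siControl and at 0.241, 0 and 1.16 in siAATF (log2 fold change -3.95, SE 0.94, adjusted p = 0.00664). Its call was lost without siControl replicate 3 (log2 fold change -3.21), and its adjusted p ranged up to 0.860 over the alternatives. Il7r (fitted log2 fold change -6.19), which reached the minimum through siControl alone, was at 0 in siControl replicate 2 and in siAATF replicate 2, below the other siAATF libraries (0.0689 and 0.332 CPM), so its groups overlap. Il4ra, which also binds interleukin-13 and is carried by macrophages and many other cells, was at 165, 121 and 111 CPM in siControl and at 34.0, 29.4 and 44.05 in siAATF. All siAATF libraries were below all siControl libraries, with a fall of 1.88 on the log2 scale (SE 0.38, adjusted p = 0.00252). Scaled by human and mouse counts together its fitted change was 2.37, in the other direction.

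Il15ra, which presents interleukin-15 to neighbouring cells, was at 2.41, 0 and 3.34 CPM in siControl, from 3, 0 and 6 counts, and at 8.79, 13.1 and 19.1 in siAATF, from 255, 65 and 345. All siAATF libraries were above all siControl libraries (fitted log2 fold change 2.47, SE 0.62), but it reached the minimum through siAATF alone. The call was lost when libraries were scaled by mouse counts alone, where the change was 0.64.

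In the interleukin-1 receptor family, Il1r1, the signalling receptor of Il1a and Il1b, was at 48.1, 43.4 and 61.8 CPM in siControl and at 31.4, 51.6 and 178 in siAATF. The groups overlapped and it was not called (log2 fold change 0.75, SE 0.57, adjusted p = 0.332). Il1rap, the accessory chain that Il1r1 and the receptors for Il33 and Il36g need for signalling, was at 19.2, 24.1 and 25.1 CPM in siControl and at 169, 95.7 and 105 in siAATF. It was higher in every siAATF library (log2 fold change 2.44, SE 0.41, adjusted p = 0.000795), though by only 0.69, and not called, when scaled by mouse counts alone. The antisense lncRNA Gm20319 shares 353 of its 8602 exon bases and had counts of 7, 1 and 3 in siControl libraries against 4013, 344 and 1252 in siAATF. Without a stated strand setting, reads in the shared part cannot be assigned to either gene. Il1r2, a decoy receptor of neutrophils and macrophages that binds Il1b without signalling, was at 5.61, 57.9 and 22.8 CPM in siControl and at 0.138, 0 and 1.88 in siAATF (log2 fold change -5.07, SE 1.04, adjusted p = 0.00252). The decoy therefore fell while the signalling chain was not called.

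Il1rl2, the receptor of Il36g, was at 1.60, 7.24 and 6.69 CPM in siControl and at 0.207, 0 and 0.111 in siAATF (fitted log2 fold change -5.07, SE 1.04). Ligand and receptor of this pair each had at most 27 counts in a siControl library and reached the minimum through siControl alone, so nothing is drawn from their both being low in siAATF. Il18rap, the accessory chain for Il18, was at 2.41, 14.5 and 7.80 CPM in siControl and at 0.0689, 0 and 0.554 in siAATF (log2 fold change -4.92, SE 1.10, adjusted p = 0.00440). This call too was lost with thinning (-4.34) and with human and mouse counts as the scale (-0.59). Its binding partner Il18r1 was not called (adjusted p = 0.854) and was read from 0 to 3 counts in siControl. Il1rl1, the receptor of Il33, was read from 1 count in siControl replicate 3, from 2 in siAATF replicate 1, from 1 count in siAATF replicate 3 and in no other library, and was not tested.

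**Figure D3:**
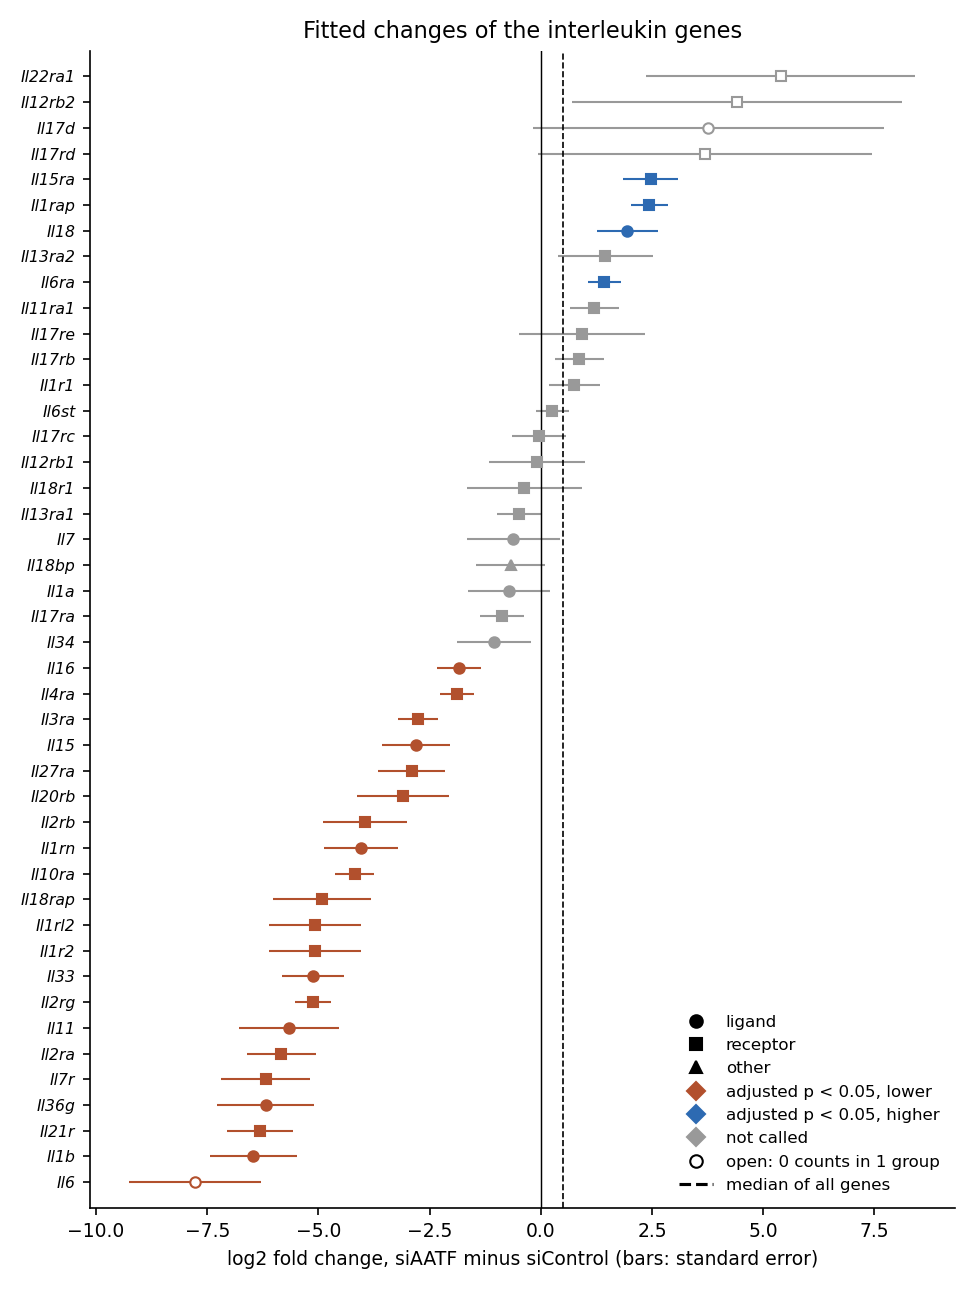
Fitted log2 fold change, siAATF minus siControl, of the 44 interleukin genes with bars of 1 standard error, orange and blue for genes called lower and higher and grey for genes not called, by role. Open symbols had no count in 1 of the groups, where the fitted value is no measure of size. The dashed line is the median of all 18018 genes at 0.50, and 21 members were called lower and 4 higher.

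Il6st, the gp130 chain found on nearly all cells, was at 98.6, 109 and 126 CPM in siControl and at 131, 155 and 113 in siAATF. The groups overlapped, with a log2 fold change of 0.26 (SE 0.38, adjusted p = 0.619) that changed sign under 3 alternatives. Il6ra, the interleukin-6 binding chain, which hepatocytes and some leukocytes carry, was at 36.1, 26.5 and 31.2 CPM in siControl and at 65.4, 86.0 and 104 in siAATF. It was called higher (log2 fold change 1.43, SE 0.37, adjusted p = 0.0112), but the change was -0.41 with mouse counts alone as the scale. The call was also lost without siControl replicate 3 (log2 fold change 1.41) and when all libraries were thinned to the smallest total (0.93). Il11ra1, the interleukin-11 binding chain, was at 15.2, 7.24 and 18.9 CPM in siControl and at 64.8, 18.9 and 18.1 in siAATF. Replicate 1 stood above the other siAATF libraries, which overlapped with siControl, and the gene was not called (log2 fold change 1.20, SE 0.55, adjusted p = 0.117). It was called higher without siAATF replicate 2 (1.54) or 3 (1.58), and its change was 0.35 without replicate 1. It was also called higher with no filter (1.31), with the replicate block (1.05) and with human and mouse counts as the scale (5.55), and was at -0.44 with mouse counts alone. Reads that also map to its copies Il11ra2 and Il11ra3, both at 0 counts, were dropped, so its level is uncertain. Il27ra, the chain of the receptor for interleukin-27, was at 4.01, 12.1 and 6.69 CPM in siControl and at 1.17, 0.403 and 1.05 in siAATF, a fall of 2.90 on the log2 scale (SE 0.75, adjusted p = 0.0102). Thinned, Il27ra was at -4.47 and no longer called.

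Il10ra, the signalling chain for interleukin-10 on macrophages and lymphocytes, was at 43.3, 29.0 and 49.6 CPM in siControl and at 2.45, 1.21 and 2.83 in siAATF. The groups were clearly apart (log2 fold change -4.19, SE 0.43, adjusted p = 4.72e-05). Il3ra, which serves interleukin-3 on myeloid cells, was at 16.8, 43.4 and 29.0 CPM in siControl and at 3.52, 3.22 and 5.71 in siAATF (log2 fold change -2.76, SE 0.46, adjusted p = 0.000666). Il20rb was called lower as well (log2 fold change -3.10, adjusted p = 0.0365), with overlapping groups, but not without siControl replicate 3 (-1.33) or siAATF replicate 1 (-2.63). The partner chain Il10rb had 1 count, in siControl replicate 1, but 1712 of its 1850 exon bases are shared with Gm21970 on the same strand, where reads cannot be assigned to a gene, so this says nothing of its level.

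Il17ra, the common receptor of the interleukin-17 cytokines, was at 35.3, 45.8 and 45.7 CPM in siControl and at 15.2, 10.5 and 42.4 in siAATF. It was not called (log2 fold change -0.88, SE 0.49, adjusted p = 0.195), and neither were the other 4 interleukin-17 receptor chains tested. Il17ra was called lower without siAATF replicate 3 (log2 fold change -1.64), with the replicate block (-1.07), thinned (-2.03) and with mouse counts alone as the scale (-2.71), and higher with human and mouse counts (3.40). Il13ra1, the partner of Il4ra for interleukin-13, was at 56.1, 67.6 and 65.2 CPM in siControl and at 26.0, 22.6 and 84.3 in siAATF. Its siAATF replicate 3 lay above all siControl libraries and the others below (log2 fold change -0.50, SE 0.50, adjusted p = 0.454), and without that library Il13ra1 was called lower (log2 fold change -1.31), as it was with mouse counts alone as the scale (-2.33). Il13ra2, a decoy for interleukin-13, was read from 1, 0 and 1 siControl counts and from 61, 5 and 27 siAATF counts, for a pooled ratio of 3.09 with an exact 95% interval of 0.832 to 25.9. Il12rb2, Il17rd and Il22ra1 had no count in siControl and at most 15 in a siAATF library, and no fold is given for them.

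Per length, the receptor chains with the highest mean level in siControl were Il4ra (25.2 ± 5.51 RPKM, SD, n = 3), Il2rg (22.9 ± 2.29), Il1r2 (20.3 ± 18.8) and Il13ra1 (17.0 ± 1.62). In siAATF they were Il1rap (14.3 ± 4.63 RPKM), Il1r1 (14.2 ± 13.0), Il11ra1 (13.5 ± 10.7) and Il6st (12.1 ± 1.90). The ranges of mean ± SD of neighbours in either order overlapped. Il2rg moved from place 2 of the 30 chains to place 14, and Il1rap from place 16 to place 1. Summed over their genes, ligands took 170.0, 608 and 686 TMM-normalized CPM in siControl and 23.1, 19.1 and 58.4 in siAATF, while receptor chains took 666, 661 and 739 against 580.1, 501 and 748. The ligand sums did not overlap and the receptor sums did.

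**Figure D4:**
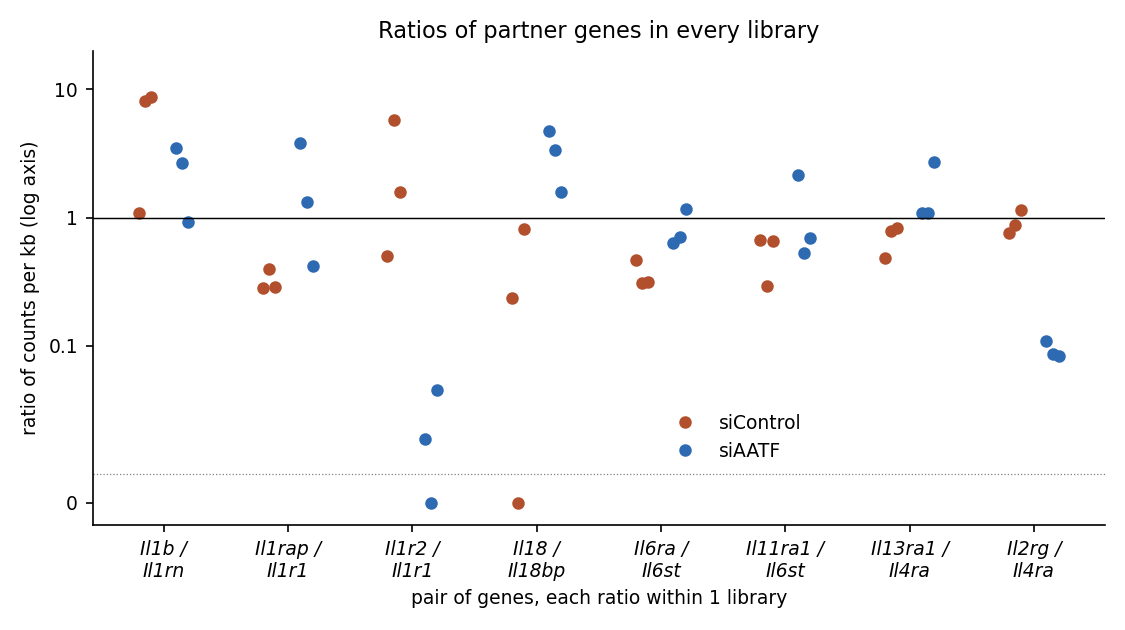
Ratio of counts per kb (log axis, with 0 drawn below the dotted line) of 8 pairs of partner genes, each taken within a library, orange for siControl and blue for siAATF. The horizontal line marks a ratio of 1. The Il2rg to Il4ra ratio was 0.764 to 1.155 in siControl and 0.0831 to 0.108 in siAATF.

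Ratios of partner genes within a library do not depend on how libraries are scaled, and 8 such ratios per kb were compared, pairs that were chosen after the values had been seen. Il2rg to Il4ra was 0.764, 0.881 and 1.155 in siControl and 0.108, 0.0862 and 0.0831 in siAATF. Il1rap to Il1r1 was 0.284, 0.395 and 0.288 in siControl and 3.82, 1.32 and 0.419 in siAATF. The accessory chain was thus below its partner in all siControl libraries and above it in siAATF replicates 1 and 2. The decoy ratio Il1r2 to Il1r1 was 0.503, 5.75 and 1.59 in siControl and 0.0189, 0 and 0.0456 in siAATF. Il18 to its antagonist Il18bp was 0.238, 0 and 0.822 in siControl and 4.74, 3.35 and 1.59 in siAATF. Il6ra to Il6st was 0.465, 0.310 and 0.315 in siControl and 0.633, 0.705 and 1.17 in siAATF. Il13ra1 to Il4ra was 0.481, 0.793 and 0.832 in siControl and 1.08, 1.09 and 2.71 in siAATF. These 6 ratios did not overlap between groups, each with a two-sided exact permutation p = 0.1, the smallest that 3 against 3 libraries allow (0.133 adjusted over the 8 pairs). The design therefore cannot bring any of them under 0.05.

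The ratio of agonist to antagonist of the interleukin-1 receptor did not separate the groups. Il1b to Il1rn was 1.09, 8.07 and 8.79 in siControl and 3.50, 2.66 and 0.922 in siAATF, with overlapping groups (two-sided exact permutation p = 0.3, 0.343 adjusted). Il11ra1 to Il6st overlapped too (exact permutation p = 0.4).

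The genes through which interleukins act, or which are related to them without the symbol, were followed in a list of 58, of which 56 reached 10 counts. Of these 22 were called lower, 4 higher and 30 were not called, with a median log2 fold change of -1.02, beside the 14.4% called lower and 17.6% called higher over all genes. Scaled by human and mouse counts together, 3 were called lower and 37 higher. With mouse library size alone, 42 were called lower and 0 higher. Among those called lower on the TMM scale were the gp130 cytokines Osm (fitted log2 fold change -7.04, SE 0.79) and Lif (-6.53, SE 0.88). Osm had 58 counts in siControl and 7 in siAATF, and Lif 39 and 5. Both reached the minimum of 10 counts through siControl alone, so their tests add no support and their values are a description. Osm, a product of macrophages and neutrophils, was at 6.42, 31.4 and 20.6 CPM in siControl and at 0.172, 0 and 0.111 in siAATF. Lif was at 5.61, 4.83 and 16.7 CPM in siControl and at 0.103, 0 and 0.111 in siAATF. For both, every siAATF library was below every siControl library.

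The receptor Lifr, which pairs with gp130 and is abundant on hepatocytes, rose most in the list. It was at 37.7, 31.4 and 35.7 CPM in siControl and at 489, 192 and 159 in siAATF (log2 fold change 2.99, SE 0.53, adjusted p = 0.000991). Sigirr, an inhibitory member of the interleukin-1 receptor family, was at 6.42, 7.24 and 8.91 CPM in siControl and at 35.4, 22.2 and 29.2 in siAATF (log2 fold change 1.92, SE 0.40, adjusted p = 0.00305). Irak1, a kinase downstream of Il1r1, was at 54.5, 70.0 and 46.8 CPM in siControl and at 125, 235 and 119.5 in siAATF (log2 fold change 1.50, SE 0.43, adjusted p = 0.0176). The remaining rise was that of the adaptor Tab2.

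By role, 5 of 8 related cytokines and 8 of 12 related receptors were called lower. So were 5 of 7 inflammasome genes, the machinery that cleaves Il1b and Il18, including the sensor Nlrp3 (log2 fold change -5.89) and Casp1 (log2 fold change -3.07). Il18 was thus higher in the libraries where Casp1 was lower, whereas Il1b fell together with it. Of the intracellular transducers, 1 of 4 JAK kinases (Jak2, log2 fold change -2.09) and 1 of 7 STAT genes (Stat4, log2 fold change -4.07) were called lower, or 25% and 14.3% beside 14.4% over all genes. Stat3, the main transducer of gp130, was at 98.6, 157 and 134 CPM in siControl and at 151, 384 and 286 in siAATF, with overlapping groups, and was not called (log2 fold change 1.08, SE 0.46, adjusted p = 0.0958). Of 9 inhibitors 2 were lower (22.2%, beside the same 14.4%), Socs1 (log2 fold change -3.16) and Ptpn6 (-2.56). Socs3, a gene induced by gp130 signalling, was at 74.6, 116 and 94.2 CPM in siControl and at 6.72, 18.7 and 106 in siAATF, and was not called.

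Several marker lists of cells that carry these genes had members called lower in siAATF, on the TMM scale of mouse counts. Across all genes tested on that scale, 14.4% were called lower and 17.6% higher. The summed neutrophil markers were at 94.6, 1926 and 1425 CPM in siControl and at 2.83, 2.42 and 140.2 in siAATF, and 6 of 8 were called lower. Their low in siControl replicate 1 was also the low of Il1b and Il1r2 in that group, and siAATF replicate 3, the highest of its group, was also highest for Il1b, Il1rn and Il1r2. The macrophage and Kupffer cell markers were at 492 to 1045 CPM in siControl and at 76.6 to 241 in siAATF, with 3 of 8 lower (Adgre1, Cd68 and Csf1r). The Kupffer cell markers Clec4f, Marco and Vsig4 had log2 fold changes of 1.50, 1.30 and 0.60, none of them called. T, NK and B cell markers were at 9.62 to 27.3 CPM against 1.61 to 6.76, with 3 of 7 tested lower (Cd3d, Cd3g and Nkg7). Of the defining T cell genes, Cd3e had 0, 0 and 2 siControl counts and none in siAATF, while Cd3g had 8, 2 and 6 counts in siAATF, and the B cell marker Ms4a1 had a log2 fold change of 1.95 that was not called. Fibroblast and stellate cell markers were at 8033 to 12061 CPM against 348 to 524, with 5 of 8 lower (Col1a1, Col1a2, Col3a1, Pdgfra and Pdgfrb). Dcn, Lrat and Reln had log2 fold changes of -0.94, 0.89 and 0.57 and were not called. Endothelial markers were at 345 to 461 CPM against 76.1 to 161, with 4 of 7 lower. The endothelial markers Kdr, Tek and Stab2 had log2 fold changes of -0.75, 0.08 and 0.85 and were not called. Cholangiocyte markers were at 16.9 to 38.5 CPM against 31.6 to 41.3, with overlapping groups and 1 of 4 lower. All 6 mast cell and basophil markers were at 0 in siControl. The part of these cell types in the interleukin differences was not tested.

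**Figure D5:**
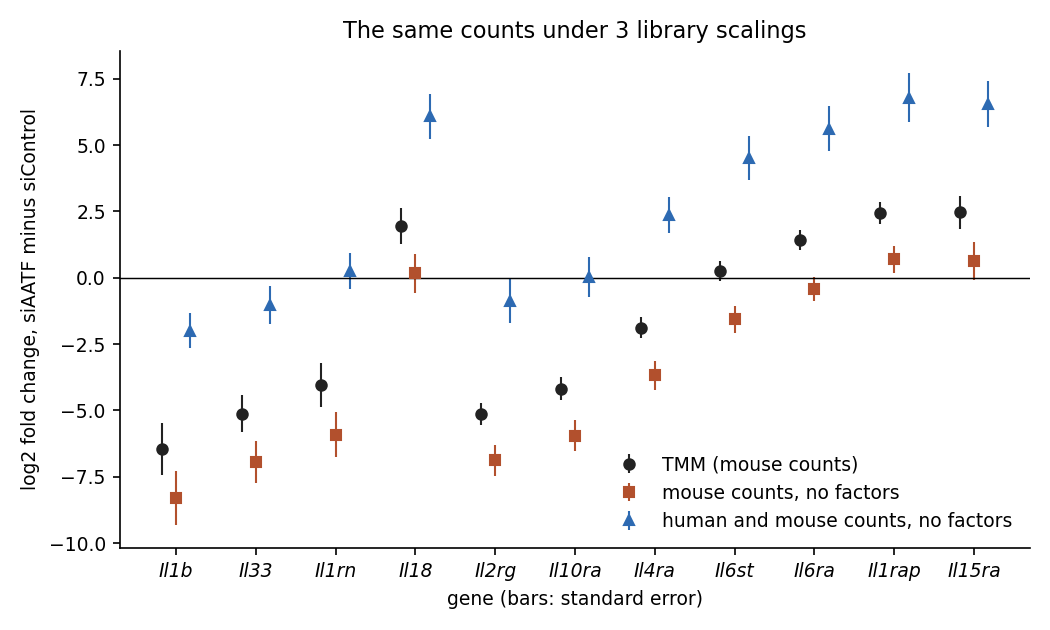
Fitted log2 fold change, siAATF minus siControl, with bars of 1 standard error, for 11 interleukin genes under 3 scalings of the same counts: TMM on mouse counts (black circles), mouse library size alone (orange squares) and human plus mouse library size (blue triangles). Il1b stayed below 0 under all 3, at -6.46, -8.30 and -1.997, while Il4ra, Il1rn and Il10ra crossed 0.

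The scale decided how the receptors were read. Of the 21 members called lower on the TMM scale, 4 (Il6, Il1b, Il21r and Il7r) stayed called lower when libraries were scaled by human and mouse counts together, 14 were not called and 3 were called higher. Of these 4, Il1b and Il21r had 10 counts or more in each group, and Il6 and Il7r in siControl alone. The fitted changes on that scale were -1.997 for Il1b, -2.19 for Il21r and -2.16 for Il7r, and Il6 had no count in siAATF. The 4 members called higher stayed higher there. With mouse counts alone as the scale, where the median of all genes was -1.30, 10 ligands and 17 receptor chains were called lower by edgeR and 0 of either higher. As a share of all gene counts of a library, ligands summed to 5.81, 9.21 and 22.8 CPM in siControl and to 15.6, 7.85 and 29.8 in siAATF, with overlapping groups, whereas receptor chains summed to 22.7, 10.01 and 24.6 against 392, 206 and 382.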

How the data were processed

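Bulk liver RNA was sequenced in 6 libraries made with a SMART-Seq kit, 3 siControl and 3 siAATF by their labels. The authors trimmed reads with Cutadapt, aligned them with STAR 2.7.11 to human and mouse genomes joined (GRCm39 for mouse), discarded multi-mapping reads and those placed in both genomes, counted genes with featureCounts 2.0.1, and deposited raw counts per gene without normalization. The strand setting is not given in the sources used here. They tested with DESeq2 1.42.0 (R 4.3.2), and their fold changes were not used.

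Mouse identifiers were named from GENCODE release M39 (56323 of 56884 found), while counting had used M33. Members, lists and promoter motifs were chosen with earlier results of these data known. Genes that reached 10 counts in total were tested with edgeR 4.0.16 (quasi-likelihood test, TMM, group as the only term, R 4.3.3), with Benjamini-Hochberg adjustment over all 18018 genes and a call at an adjusted p under 0.05. The script was also run on simulated counts in which all libraries shared the same composition apart from the genes changed, unlike these libraries. Values in every library are given for 25 members fixed by name and for others that were called, had a fitted change past 2 or -2 on the log2 scale and did not overlap between groups, at most 12 of each role. From the signalling list the 3 largest called changes in each direction were taken, of which 1 is not reported here, and other genes named were picked after their values were seen. Pooled ratios carry exact 95% intervals, and shares carry Wilson intervals. Ratios of partner genes were an alternative chosen after seeing the data. Alternatives were DESeq2, limma-voom (limma 3.58.1), RLE and upper-quartile normalization, scaling by mouse or by all counts, other filters, thinning to 213022 counts a library, the criteria of the study, the replicate block and leaving out each library. Human counts were used for library totals only. Plots used Python 3.11.15 and matplotlib 3.10.9.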

Additional observations from a re-analysis of the deposited data

How the results depend on the processing

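Counts of calls are given here as ligands lower and higher, then receptor chains, then signalling genes; the reported counts were 8 and 1, 13 and 3, 22 and 4. Scaled by human and mouse counts they were 2 and 6, 2 and 19, 3 and 37. With mouse library size alone they were 10 and 0, 17 and 0, 42 and 0. Thinned to the smallest total they were 4 and 0, 8 and 1, 16 and 1. RLE gave 0 ligands higher, as did limma-voom, upper-quartile normalization (with 2 signalling genes higher) and the criteria of the study (with 1 signalling gene higher). With at least 10 counts in every library no ligand could be tested, and 2 receptor chains and 9 signalling genes were lower. DESeq2, filterByExpr, no filter and an added minimum change of 1 on the log2 scale left all 6 counts within 1.5 times of the reported ones. Leaving out each library gave 4 to 8 ligands lower and 0 to 1 higher, 11 to 15 receptor chains lower and 2 to 4 higher, and 19 to 24 signalling genes lower and 2 to 6 higher. Among members whose values are given in full, the fitted log2 changes that changed sign with human and mouse counts as the scale were those of Il1a (3.62), Il1rn (0.24), Il15 (1.34), Il16 (2.31), Il34 (3.22), Il4ra (2.37), Il10ra (0.034), Il13ra1 (3.77), Il17ra (3.40), Il18bp (3.43), Il2rb (0.18), Il27ra (1.499) and Il3ra (1.59). Among the other members Il20rb (0.93), Il7 (3.56), Il18r1 (3.57), Il12rb1 (3.94) and Il17rc (4.24) did so too. With mouse library size alone they were Il1r1 (-1.12), Il6ra (-0.41), Il6st (-1.57) and Il11ra1 (-0.44), and among the others Il13ra2 (-0.25), Il17rb (-0.90) and Il17re (-0.83). Il6st was also at -0.028 with upper-quartile normalization and at -0.056 thinned, and Il1r1 at -0.088 thinned. With 1 library left out, Il1a ranged from -1.31 to 0.013, Il1r1 from -0.26 to 1.17 and Il18bp from -2.22 to 0.41. The scalings differ by construction in the total they divide by, and the cause of the other changes was not tested.

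Whether the replicate numbers pair the libraries could not be settled with 3 libraries a group. The correlations of deviations between same-numbered libraries were 0.110, 0.154 and -0.024. Those between libraries of different numbers ran from -0.211 to 0.149. With the replicate block, 8 ligands were lower and 1 higher, 14 receptor chains lower and 4 higher, and 26 signalling genes lower and 5 higher. Depth limits the siControl side, where 3 counts are worth up to 7.24 TMM-normalized CPM.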
